A study of Mus musculus with 125 samples.

Results

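Bmx, Gja4, Gja5, Gkn3, Mgp and Cxcl12 are 6 genes used as markers of arterial endothelium, the cells that line arteries. They were given as a list of 6 names, and all 6 were found among the 27998 genes of the single-cell tables. Their expression was read from 5 single-cell libraries of mouse brain, 1 library for each age: E9.5, E12.5 and E16.5 before birth, and P8 and adult after it. Open chromatin around them was read from 66 ATAC-seq peak lists, 37 of endothelial nuclei and 29 of input nuclei, meaning nuclei of the whole tissue. Of 301207 regions with a peak in at least 3 of the 66 lists, those used here overlapped a member gene or lay within 50 kb of it: 19 at Bmx, 21 each at Gja4 and Gja5, 15 at Gkn3, 26 at Mgp and 23 at Cxcl12.

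For the single-cell libraries, cells were enriched with beads against CD31, an endothelial surface protein. Whole brain of the 3 embryonic ages was dissociated with collagenase, and cortex of P8 and adult mice with a neural tissue kit (adults of both assays were 2 months old). Between embryonic and postnatal libraries, age, tissue and dissociation therefore cannot be told apart. Tissue and dissociation were the same among the embryonic ages, and the same for P8 and adult. Within each of these sets, age and library still cannot be told apart. The headers of E9.5, P8 and adult name the counting software Cell Ranger 4.0.0, and those of E12.5 and E16.5 name none. Across this split, age and any difference in counting cannot be told apart either. For the ATAC-seq lists, mice received tamoxifen at 0.015 mg per kg, and only tissue with GFP in its vessels was used. Tamoxifen was given at E10.5 for the E12 group, at P1 and P3 for the P6 group, and 7 days before collection for the adult group. The titles give E12 and P6 for groups that the protocol places at E12.5 and P7, and the titles' names are kept here. The same holds for the single-cell library titled E16.5, whose data are named for another day. The labels used here name neither the line and promoter behind the GFP nor a strain, genotype or sex for any group. Adult and P6 lists come from 6 organs, namely heart, lung, kidney, liver, retina and brain (2 to 3 endothelial lists for each organ and age), and E12 lists cover brain, heart and trunk (3 to 4). Input lists number 10 at adult, 16 at P6 and 3 at E12. Nothing states that replicates came from separate animals, so the p-values measure only the spread between these lists.

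Endothelial cells of arteries differ from those of veins and capillaries under the joint control of VEGF and Notch signalling, blood flow and transcription factors of the ETS, SoxF and KLF families. Arterial cells are joined by gap junctions built from connexins, which pass ions and small molecules along the vessel wall, and they face a muscular coat. In brain, arterial identity grades into capillary identity along the vessel, so a marker of large arteries and a marker of small arterioles need not label the same cells.

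The 6 genes have these roles. Gja4 encodes connexin 37 and Gja5 connexin 40, the gap junction proteins of arterial endothelium. Bmx encodes a non-receptor tyrosine kinase of the TEC family found in arterial endothelium and endocardium. Gkn3 encodes gastrokine 3, a secreted protein known from stomach that also marks brain arterial endothelium. Mgp encodes matrix Gla protein, a secreted inhibitor of BMP signalling and of vessel calcification, made also by smooth muscle cells and fibroblasts. Cxcl12 encodes a chemokine, the ligand of the receptor Cxcr4, made by endothelial and stromal cells. In the GRCm38.p6 annotation Bmx lies at chrX:164192842-164258193 and Gja4 at chr4:127311420-127314039, both on the minus strand, and Gja5 at chr3:97032402-97053634 on the plus strand. On chromosome 6, Gkn3 lies at chr6:87383319-87388935 (minus strand), Cxcl12 at chr6:117168535-117181368 (plus strand) and Mgp at chr6:136872435-136875823.

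The promoters of 4 members are shown first, since the peak results turn on them: the Gja4 promoter was in every endothelial list, those of Gja5 and Bmx in some ages and organs, and that of Gkn3 in few. The RefSeq promoter table (GRCm38.p6) holds 5 of the 6 members, all but Mgp, and each entry spans 250 bases before to 50 bases after the gene start. Capitals mark matches to 9 short motifs searched on both strands: for ETS factors CCGGAA or else AGGAAG, for SoxF factors AACAAT, for forkhead factors GTAAACA, for RBPJ (the DNA-binding partner of Notch) GTGGGAA, for KLF factors CCACCC, for GATA factors AGATAA, for TCF and LEF factors CTTTGA, and for the TATA box TATAAA. Gja5 (plus strand, chr3:97032152-97032451), Gja4 (minus strand, chr4:127313990-127314289), Gkn3 (minus strand, chr6:87388886-87389185) and Bmx (minus strand, chrX:164258144-164258443) read, 5′ to 3′:
Gja5: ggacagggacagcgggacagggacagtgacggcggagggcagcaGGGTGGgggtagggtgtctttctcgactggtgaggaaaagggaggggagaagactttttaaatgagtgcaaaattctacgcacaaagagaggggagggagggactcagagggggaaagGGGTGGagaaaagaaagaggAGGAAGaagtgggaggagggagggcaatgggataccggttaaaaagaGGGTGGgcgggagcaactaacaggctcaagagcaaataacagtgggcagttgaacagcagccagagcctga
Gja4: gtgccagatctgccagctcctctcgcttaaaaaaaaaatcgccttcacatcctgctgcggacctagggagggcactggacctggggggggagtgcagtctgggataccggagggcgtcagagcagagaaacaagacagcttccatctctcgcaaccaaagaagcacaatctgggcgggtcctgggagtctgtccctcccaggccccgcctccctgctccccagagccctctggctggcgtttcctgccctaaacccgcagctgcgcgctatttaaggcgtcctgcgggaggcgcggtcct
Gkn3: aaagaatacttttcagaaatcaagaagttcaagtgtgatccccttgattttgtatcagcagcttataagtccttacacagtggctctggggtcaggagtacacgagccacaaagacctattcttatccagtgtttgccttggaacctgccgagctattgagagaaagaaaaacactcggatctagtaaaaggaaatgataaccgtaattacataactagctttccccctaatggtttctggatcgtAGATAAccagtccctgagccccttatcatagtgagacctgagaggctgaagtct
Bmx: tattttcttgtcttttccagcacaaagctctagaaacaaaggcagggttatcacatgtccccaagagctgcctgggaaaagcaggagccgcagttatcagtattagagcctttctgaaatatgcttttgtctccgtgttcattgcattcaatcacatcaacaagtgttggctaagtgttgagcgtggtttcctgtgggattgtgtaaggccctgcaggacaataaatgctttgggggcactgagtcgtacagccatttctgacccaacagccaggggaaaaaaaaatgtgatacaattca

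The Gja5 promoter held 3 matches to CCACCC (starting 206, 88 and 21 bases before the gene start, all on the reverse strand and so printed as GGGTGG) and 1 to AGGAAG (68 bases before). The Gkn3 promoter held 1 match to AGATAA across the gene start. The Gja4 and Bmx promoters held none of the 9 motifs. Cxcl12, not printed, held 1 match to CTTTGA and 1 to CCACCC. Among all 32851 promoters of the table, 31.5% held CCACCC, 35.4% AGGAAG, 11.2% AGATAA, 16% CTTTGA, 14.9% CCGGAA, 10.7% AACAAT, 3.65% GTAAACA, 6.38% GTGGGAA and 13.6% TATAAA. Base composition varied widely: G and C made up 42.7% of the Gkn3 promoter, 44.7% of Bmx, 55.7% of Gja5, 62.0% of Gja4 and 64.7% of Cxcl12, against a median of 52.7% over the table. The number of CG dinucleotides went from 4 in Bmx and 5 in Gkn3 to 7 in Gja5, 16 in Gja4 and 20 in Cxcl12.

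A barcode was counted as an endothelial cell where it held at least 200 genes, at most 10% mitochondrial UMIs (unique molecular identifiers, 1 for each captured RNA molecule) and a UMI of at least 3 of 6 endothelial genes, Cdh5, Pecam1, Egfl7, Esam, Tie1 and Kdr. From the earliest age to the adult this left 5644 of 17176, 6347 of 8310, 3786 of 3997, 4778 of 7305 and 3154 of 5552 barcodes. Median UMIs in them were 7158, 10469, 9017, 8468 and 4896. The summed level of the 6 endothelial genes ranged from 1907 to 3888 CPM over the 5 libraries, where CPM stands for the UMIs of a gene per 1000000 UMIs of all endothelial barcodes of a library. RNA of other cells was present too: the 12 mural (pericyte and smooth muscle) genes together made up 167, 98.6, 238, 835 and 1969 CPM from E9.5 to adult, the 6 fibroblast genes 21.1 to 56.3, and the 6 erythroid genes 2359 to 16087. Smooth muscle Myh11 was at 0.165 to 1.26 CPM before adult and at 79.8 in the adult. Each library shared 40 to 64 barcode sequences with another library, and without those each level stayed within 0.988 to 1.01 times its value.

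Between E12.5 and adult, 4 members were higher and 2 lower by at least 2-fold in brain endothelial barcodes. Bmx, Gkn3, Mgp and Cxcl12 were 30.9 to 353 times higher, while the connexins Gja4 and Gja5 were 3.60 and 4.30 times lower. The sizes depended on the barcodes chosen, over 8 alternatives: Bmx was 10.4 to 46.0 times higher, Mgp 92.0 to 423, Cxcl12 35.3 to 114 and Gkn3 120 to 421 (with 1 alternative leaving no Gkn3 UMI at E12.5), and Gja4 was 2.59 to 7.40 and Gja5 2.80 to 8.52 times lower. Over all 14553 genes with at least 20 UMIs in the 2 libraries compared, 29.0% were at least 2-fold higher in the adult and 26.8% lower. Levels below are in CPM, and their exact 95% Poisson intervals cover counting error only. With 1 library for each age there is no test of age. The level of 1 gene is compared between ages only, since UMI totals are not scaled to gene length.

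Gja4 was highest at E12.5. It stood at 187, 423, 283, 185 and 118 CPM from E9.5 to adult. The adult level was 3.60-fold lower than at E12.5 (interval 3.46 to 3.74) and 1.57-fold lower than at P8. With each barcode thinned to 1000 UMIs, so that deep barcodes weigh no more than others, the level was 418 CPM at E12.5, 200 at P8 and 66.2 in the adult, and with at most 5% mitochondrial UMIs it was 378 at P8 and 157 in the adult. A UMI of Gja4 was found in 36.7, 45.8, 44.6, 36.9 and 18.3% of endothelial barcodes. After this thinning the shares were 15.2, 18.7, 16.8, 12.4 and 5.49%, so E12.5 stayed highest and adult lowest at equal depth. Barcodes with none of the 6 endothelial genes, whose median depth was 1247 to 6496 UMIs, held Gja4 in 8.77, 13.9, 1.96, 13.1 and 12.5%.

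Gja5 was detected in far fewer cells than Gja4, and its level was lower after birth than at E12.5 and E16.5. It stood at 19.2, 33.5, 29.0, 6.45 and 7.78 CPM at the 5 ages in order. From E16.5 to P8 it was 4.50-fold lower (4.01 to 5.05), and P8 and adult lay within 1.21-fold of each other (1.01 to 1.44). With at most 5% mitochondrial UMIs it stood at 11.6 CPM at E9.5, 30.2 at E16.5, 11.9 at P8 and 10.6 in the adult, so P8 was no lower than E9.5 and 2.54-fold lower than E16.5. A Gja5 UMI was found in 9.46, 8.59, 7.13, 2.47 and 3.65% of endothelial barcodes, and in at most 0.769% of barcodes without an endothelial gene. Its level in the latter was at most 2.55 CPM, at P8. The adult share lay above that of P8 only at unequal depth. Thinned, 0.590% of P8 and 0.420% of adult barcodes held a UMI, and the adult level was 4.20 CPM.

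Bmx was low through P8 and high in the adult. It stood at 3.61, 5.59, 15.6 and 14.7 CPM over the first 4 ages, and at 173 in the adult. The E16.5 and P8 levels differed by no more than counting error allows (P8 over E16.5 0.942, interval 0.851 to 1.04) at the filter of 10% mitochondrial UMIs, but with at most 5% P8 was at 34.3 and E16.5 at 16. The adult was 11.7-fold above P8 (10.9 to 12.6). The share of barcodes with a Bmx UMI was 2.48, 3.43, 6.89, 5.44 and 23.8%, against 0 to 4.55% of barcodes without an endothelial gene. These are shallower, and their Bmx level was 3.30, 0.259, 0, 12.8 and 13.8 CPM, near the endothelial level at E9.5 and P8. Thinned to equal depth, 1.31% of P8 and 9.27% of adult endothelial barcodes held a Bmx UMI, and the adult level was 122 CPM.

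Gkn3 went from 0 UMIs at E9.5 to 22437 in the adult. No UMI was found in 5644 barcodes at E9.5, which allows a level of up to 0.0656 CPM and a share of barcodes with a Gkn3 UMI of up to 0.0532%, which is no limit on cells that express it. From E12.5 to adult it stood at 3.35, 14.3, 92.5 and 965 CPM, the first of these at least 51.0-fold above that limit. Each step was larger than counting error, with P8 6.48-fold above E16.5 and the adult 10.4-fold above P8 (10.1 to 10.7). Thinned, the adult level was 527 CPM. Both the share of barcodes and the amount in each differed: 1.01, 3.35, 6.40 and 24.8% of barcodes held Gkn3 from E12.5 to adult, with a mean of 4.20, 4.78, 18.3 and 28.7 UMIs in those that did. At P8 the 5.38% of barcodes without an endothelial gene that held Gkn3 was close to the share in endothelial barcodes, but its level there was 40.8 against 92.5 CPM.

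Mgp stood at 0.197 CPM at E9.5, from 9 UMIs, then at 3.57, 38.2, 91.3 and 1261. The adult level was 353-fold above E12.5 (314 to 398) and 13.8-fold above P8. Thinned, it was 666 CPM in the adult. Before adult, barcodes without an endothelial gene held Mgp about as often as endothelial ones or more often: 0.268, 2.89, 3.92 and 20.8% against 0.159, 1.06, 5.28 and 9.59%. In the adult these shares were 23.3 and 28.8%. The Mgp level was also higher in barcodes without an endothelial gene at each age before adult. It was 12.4 against 3.57 CPM at E12.5, 53.3 against 38.2 at E16.5 (from 2 barcodes with Mgp) and 2365 against 91.3 at P8. In the adult it was lower in them, at 836 against 1261. Cells with Mgp also carried more RNA of wall cells, since 46.1% of P8 barcodes with Mgp held at least 2 mural genes against 10.6% of those without, and 35.3 against 7.62% in the adult. Adult barcodes with the other arterial members held mural genes more often too: 40.1 against 10.1% with and without Gja4, 40.0 against 14.7% for Gja5, 26.7 against 12.1% for Bmx, 26.6 against 12% for Gkn3 and 16.4 against 12.7% for Cxcl12. Leaving out barcodes with 2 mural or 2 fibroblast genes lowered the Mgp level to 50.0 at P8 (0.547 times) and to 945 in the adult (0.749 times). The adult levels of the other 5 were then 0.709 times (Gja4, 83.5 CPM) to 1.23 times (Cxcl12, 2560 CPM) those given. By the shares alone, Mgp at or below the share of barcodes without endothelial genes cannot be told apart from background RNA. Without the wall cell barcodes, Mgp was uneven among endothelial barcodes. Those with at least 2 of Bmx, Gja5 and Gkn3 held it at 0, 63.7, 419 and 750 CPM from E9.5 to P8. Those with none of the 3 held it at 0.185, 0.294, 2.65 and 8.27. Which cells this Mgp came from was not tested.

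Cxcl12 stood at 5.75, 56.4, 429, 533 and 2083 CPM from E9.5 to adult. It was 7.61-fold higher at E16.5 than at E12.5, 1.24-fold higher at P8 than at E16.5 and 3.91-fold higher in the adult than at P8. Thinned, it was at 483, 809 and 3059 CPM from E16.5 to adult, and with at most 5% mitochondrial UMIs at 437, 1249 and 2621, so the size of these last steps depended on the choice. It became the most widely detected member, in 3.74, 17.8, 51.9, 44.1 and 78.9% of endothelial barcodes, and at equal depth in 0.763, 4.11, 24.4, 25.4 and 59.3%. At E9.5 the 3.74% lay below the 6.08% of barcodes without an endothelial gene, and the level of 5.75 CPM below their 35.1. From E12.5 to adult the Cxcl12 level in barcodes without an endothelial gene was 14.8, 131, 143 and 283 CPM, below that of endothelial barcodes.

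**Figure D1:**
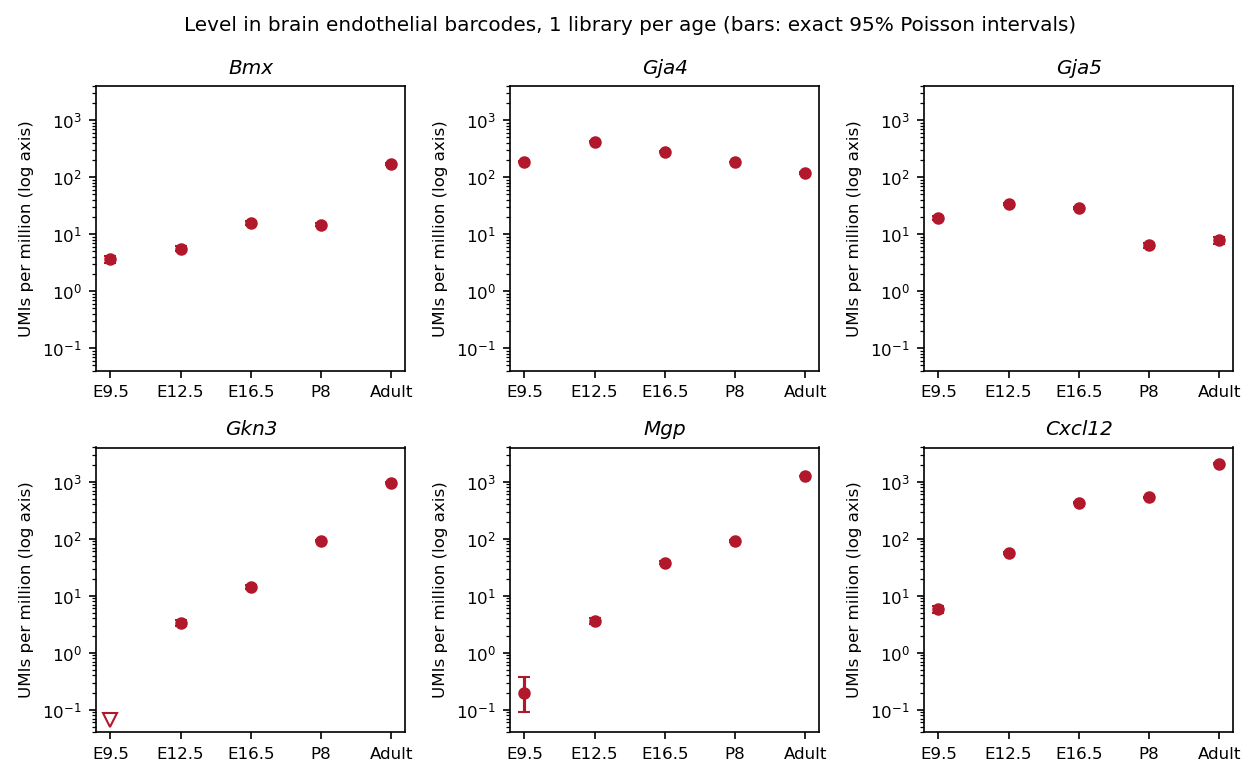
Level of each member (UMIs per 1000000, log axis) in the endothelial barcodes of the 5 brain libraries, by age, with exact 95% Poisson intervals. The open triangle for Gkn3 at E9.5, where 0 UMIs were found, is the level of 3 UMIs. Bmx, Gkn3, Mgp and Cxcl12 were highest in the adult library, at 173, 965, 1261 and 2083, and Gja4 and Gja5 at E12.5, at 423 and 33.5.

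These directions held under 8 other choices of barcodes. Bmx, Mgp and Cxcl12 were at least 2-fold higher and Gja4 and Gja5 lower from E12.5 to adult in each. Gkn3 was at least 2-fold higher in all but 1, which left it 0 UMIs at E12.5 and so no fold. That choice also left Bmx only 7 and Mgp only 8 UMIs at E12.5. Single levels moved by more than 2-fold under some of the 8 choices. With at most 5% mitochondrial UMIs only 1252 of the 4778 P8 barcodes were left, and Bmx was at 34.3, Gja4 at 378, Gja5 at 11.9, Gkn3 at 177 and Cxcl12 at 1249. Leaving out barcodes with 2 genes of any other cell class kept 947 adult barcodes, in which Bmx was at 67.6, Gja4 at 28.9, Gkn3 at 323 and Mgp at 682 CPM. The neural class used for this held Nes, at 328 CPM in adult endothelial barcodes, and Stmn2. Stmn2 correlated in the adult with Bmx (r = 0.70), Gkn3 (0.73) and Gja4 (0.60). Leaving out such barcodes can therefore remove arterial cells as well as mixed barcodes, and the 2 cannot be told apart in these lower levels. The same choice kept 166 barcodes at E12.5, none with Gkn3, and put Gja4 higher at E16.5 (242) than at E12.5 (214).

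The 18 other genes of an arterial list are set beside the members here, with no test. From E12.5 to P8, 4 of the 6 members were at least 2-fold higher and 2 lower, against 4 and 0 of the 18 others (Fbln5, Jag2, Notch1 and Tgfb2 higher), and against 21.1% higher and 19.7% lower of all genes. From P8 to adult, 4 members were higher and 0 lower, against 8 and 2 of the others and 17.5 and 14.7% of all genes. The 2 lower ones were Dll4, a Notch ligand of sprouting and arterial endothelium, and Cxcr4, the Cxcl12 receptor. From E12.5 to adult, 12 of the 18 were higher and 1, Cxcr4, lower. The median log2 ratio of adult to E12.5 was 5.08 over the members, 1.30 over the other 18 and 0.0276 over all genes.

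Among these other genes the transcription factor Sox17 stood at 203 CPM at E12.5, 237 at P8 and 581 in the adult, and the secreted semaphorin Sema3g at 18.7, 18.4 and 152. Their adult levels were the highest of the 5 ages, as for 4 of the members. The elastic fibre protein Fbln5 peaked at E16.5, at 265, and was at 66.6 in the adult. Dll4 also peaked at E16.5, at 120, and was at 34.3 in the adult, while Cxcr4 was at 48.1 and 2.67. Efnb2, the arterial ephrin, stayed between 31.1 and 49.4 at all ages. The Notch target Hey1 ranged from 24.0 to 131 and Hey2 from 2.50 to 7.48, the growth factor Vegfc from 21.8 to 54.3, the guidance receptor Unc5b from 29.6 to 102 and the Notch ligand Jag1 from 6.65 to 99.7.

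Bmx, Gkn3 and Gja5 were found together in the same barcodes. Of 115 adult barcodes with Gja5, 98.3% held Bmx, 99.1% Gkn3, 97.4% Mgp and 90.4% Gja4, against 21.0, 22.0, 26.2 and 15.6% of barcodes without Gja5. Cxcl12 did not separate them, with 79.1 and 78.9%. Barcodes with Gja5 were also deeper, with a median of 17429 against 4816 UMIs, and depth raises every detection share. The relation was not symmetric, since only 15.1% of adult barcodes with Bmx held Gja5. At P8, of 118 barcodes with Gja5 78.0% held Bmx and 79.7% Gkn3, against 3.61 and 4.55% of the others. At E12.5, of 545 with Gja5 88.6% held Gja4 and 31.0% Bmx, against 41.7 and 0.845%. Barcodes with at least 4 of the 6 members made up 0.0886, 2.65, 5.47, 3.96 and 16.3% of endothelial barcodes from E9.5 to adult.

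**Figure D2:**
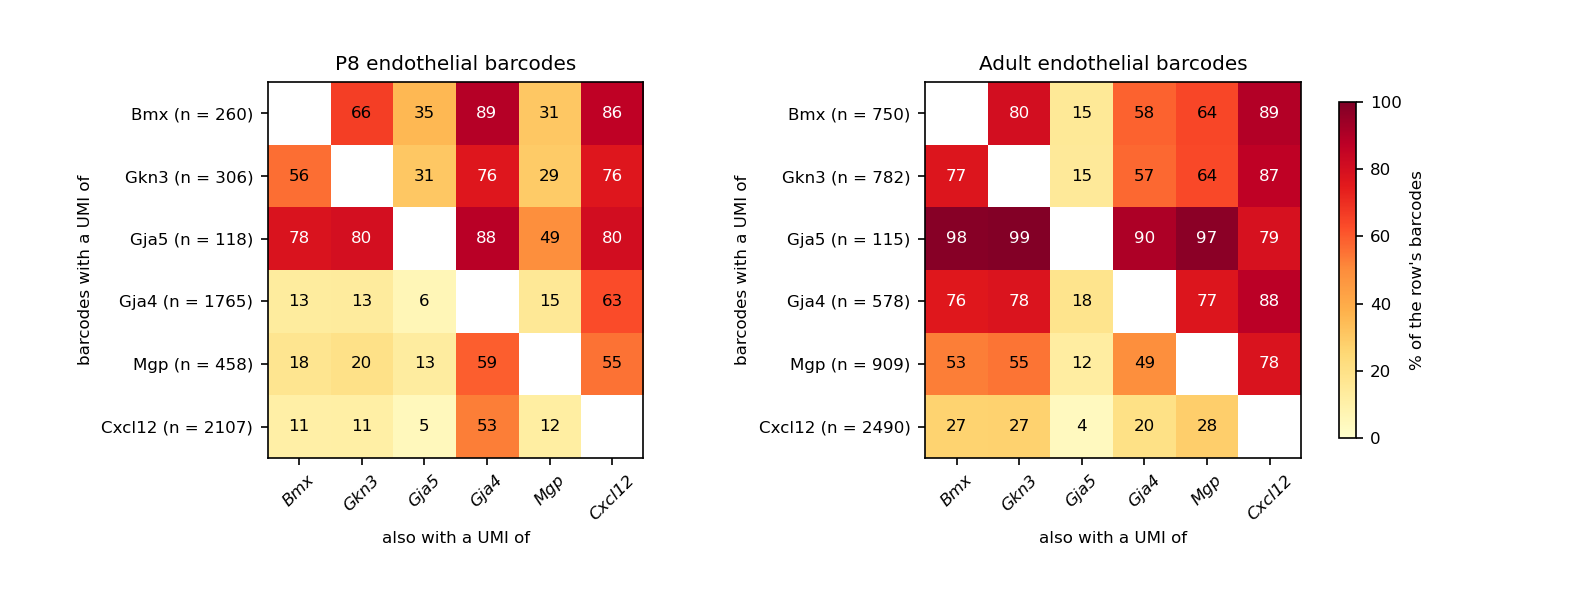
Share of the P8 (left) and adult (right) endothelial barcodes with a UMI of the gene in the row, n in brackets, that also held a UMI of the gene in the column, as a percent in each cell and by colour. The Gja5 row is darkest in the adult, with 98.3% for Bmx and 99.1% for Gkn3, while the adult Cxcl12 row is pale.

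The genes most correlated with each member over barcodes are given as a description only (Pearson r of log2 UMIs per 10000 plus 1, over 4778 barcodes at P8 and 3154 in the adult, which share a library, its depth differences and its background RNA). In the adult, Bmx was closest to Gkn3 (r = 0.76), Stmn2 (0.70), Egfl8 (0.65), Sema3g (0.60) and Tm4sf1 (0.60). Gkn3 was closest to Bmx, Stmn2 (0.73), Egfl8 (0.71), Gja4 (0.68) and Fbln2 (0.68), and Gja4 to Gkn3, Mgp (0.62), Stmn2 (0.60), Bmx (0.58) and Fbln2 (0.57). Elastic fibre genes (Eln, Fbln5) were near Gja5 and Mgp. Gja5 was closest to Igfbp4 (0.50), Fbln5 (0.49), Eln (0.48), Clu (0.46) and Cytl1 (0.45), and Mgp to Gkn3 (0.66), Eln (0.65), Clu (0.64), Fbln5 (0.63) and Gja4 (0.62). Cxcl12 stood apart, with Flt1 (0.39), Cd200 (0.34), Spock2 (0.32), Slc26a10 (0.32) and Ly6c1 (0.30) closest and values of -0.26 to -0.0016 with the other 5 members.

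At P8 the nearest genes of Bmx were Fbln5 (0.71), Gkn3 (0.70), Fbln2 (0.64), Serpinf1 (0.64) and Stmn2 (0.59), and those of Gkn3 Fbln5 (0.73), Bmx (0.70), Gja5 (0.64), Fbln2 (0.64) and Sbspon (0.63). Gja5 was closest to Gkn3 (0.64), Sbspon (0.56), Bmx (0.54), Eln (0.54) and Dkk2 (0.52), and Gja4 to Col18a1 (0.58), Fbln2 (0.58), Vegfc (0.57), Stmn2 (0.57) and Fbln5 (0.56). Mgp was closest to Eln (0.52), Fbn1 (0.49), Emp3 (0.48), Col8a1 (0.46) and Col3a1 (0.45), among them genes of elastic fibres and collagens. Cxcl12 was closest to Ptn (0.61), Slco1a4 (0.60), Htra1 (0.59), Ly6c1 (0.57) and Cdkn1c (0.57), among them Slco1a4, a transporter of brain endothelium. Its P8 values with the other members ran from 0.0062 (Mgp) to 0.42 (Gja4), unlike those of the adult.

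Barcodes with at least 2 of Bmx, Gja5 and Gkn3, a set formed after the values were seen and so given with no test, held the other arterial genes too. There were 51, 180, 199, 180 and 605 such barcodes from E9.5 to adult, 0.904, 2.84, 5.26, 3.77 and 19.2% of the endothelial barcodes. They were deeper than barcodes with none of the 3 genes, with medians of 9566 against 4410 UMIs in the adult. Of the 18 other arterial genes 16 had a higher level in them at E9.5 and 18 at each later age, while capillary genes were lower for 6 or 7 of 7 at every age and venous genes for 6 to 8 of 10. Sema3g was 14.4 times higher in them in the adult, Vegfc 23.3 times and Hey2 3.62 times. Not all venous genes were lower. In the adult the transporter gene Slc38a5 was at 18.3 against 325 CPM, but the adhesion molecule gene Vcam1 was at 453 against 59.6, and Vwf, which encodes von Willebrand factor, at 279 against 247. From E12.5 to P8 Vcam1 was 35.9 to 59.9 times higher in the set and Vwf 2.91 to 9.99 times.

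Within these barcodes the 3 members not used to pick them differed. Gja4 was at 1157, 2558, 1444, 1622 and 320 CPM from E9.5 to adult, against 117, 240, 156, 88.4 and 12.5 in barcodes with none of the 3 genes. These sets are not one class of cells across ages, since Bmx and Gkn3, which pick them, were themselves far higher in the adult. Mgp was at 58.4, 491, 806 and 3398 CPM from E12.5 to adult, against 0.988, 4.20, 49.6 and 179. Cxcl12 changed sides: it was at 15.1 against 4.76 CPM at E9.5 (7 UMIs in the set), 14.4 times higher in the set at E12.5, 1.16 and 1.68 times higher at E16.5 and P8, and lower in the adult, at 1417 against 2359. Mural genes were higher in the adult set for 9 of 12 (Acta2 634 against 45.3 and Myh11 206 against 15.4, but the pericyte gene Kcnj8 4.45 against 26.9). At E9.5 mural genes were higher in the set for 2 of 12, Acta2 (282 against 38.5) and Tagln (694 CPM, 9.91 times), and 41.2% of its barcodes held 2 mural or 2 fibroblast genes, against 5.62% of those with none of the 3 genes. Without such barcodes 30 were left in the E9.5 set, and Cxcl12 was at 3.99 against 4.44 CPM. With at most the 7 UMIs of the whole set, its side at E9.5 cannot be told. Without barcodes holding 2 mural or 2 fibroblast genes, 176 of the 605 adult barcodes dropped out, 18 of 18 arterial genes were still higher, and Gja4 stood at 288 against 5.09, Mgp at 3297 against 80.7 and Cxcl12 at 1824 against 2729.

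**Figure D3:**
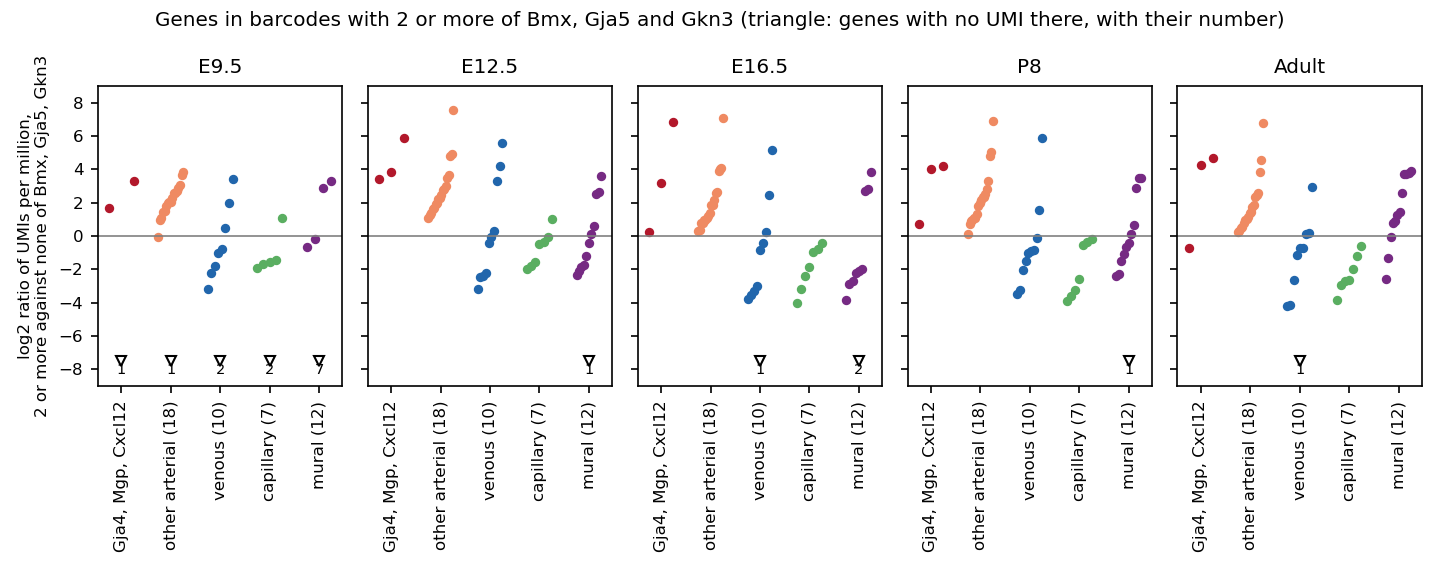
Each point is 1 gene, its height the log2 ratio of its level in barcodes with at least 2 of Bmx, Gja5 and Gkn3 to that in barcodes with none of them, by age and gene list; triangles stand for genes with no UMI in the former, with their number. The 18 other arterial genes lie above 0 at each age but E9.5, where 16 do, and the 7 capillary genes lie below 0 at E16.5, P8 and adult.

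The peak lists ask where chromatin around the members was open in endothelial and in input nuclei of each organ. Endothelial lists held 19464 to 47334 peaks in the adult, 27160 to 92863 at P6 and 39096 to 120456 at E12, with median tags of 24997526, 20807989 and 33864042. Of the regions tested between adult and P6, 7.21% had a peak in a larger share of adult lists. Only the presence of a peak was compared. A list without a peak in a region does not show closed chromatin, and fewer arterial nuclei and less open chromatin in each cannot be told apart. E12 heart endothelial list 3 (39096 peaks) and P6 brain endothelial list 1 (27160 peaks, against 79903 and 87133 in the other 2) stood apart from their groups. The median number of member regions with a peak was 17.5 in adult, 36.5 in P6 and 56.0 in E12 endothelial lists, and 19.5, 31.0 and 43.0 in input lists.

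The promoters of the members differed in how many lists had a peak there. Over the 300 bases of the promoter table, Gja4 had a peak in 37 of 37 endothelial and 27 of 29 input lists, Cxcl12 in 28 and 25, Bmx in 24 and 5, Gja5 in 19 and 14, and Gkn3 in 6 and 1. Over all 32851 promoters the median was 6.00 of 37 endothelial and 7.00 of 29 input lists, with 31.0% listed in none and 23.2% in all 66. Of the 15 other arterial genes with a promoter in the table, 7 had a peak in all 37 endothelial lists, and the fewest was 18.

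**Figure D4:**
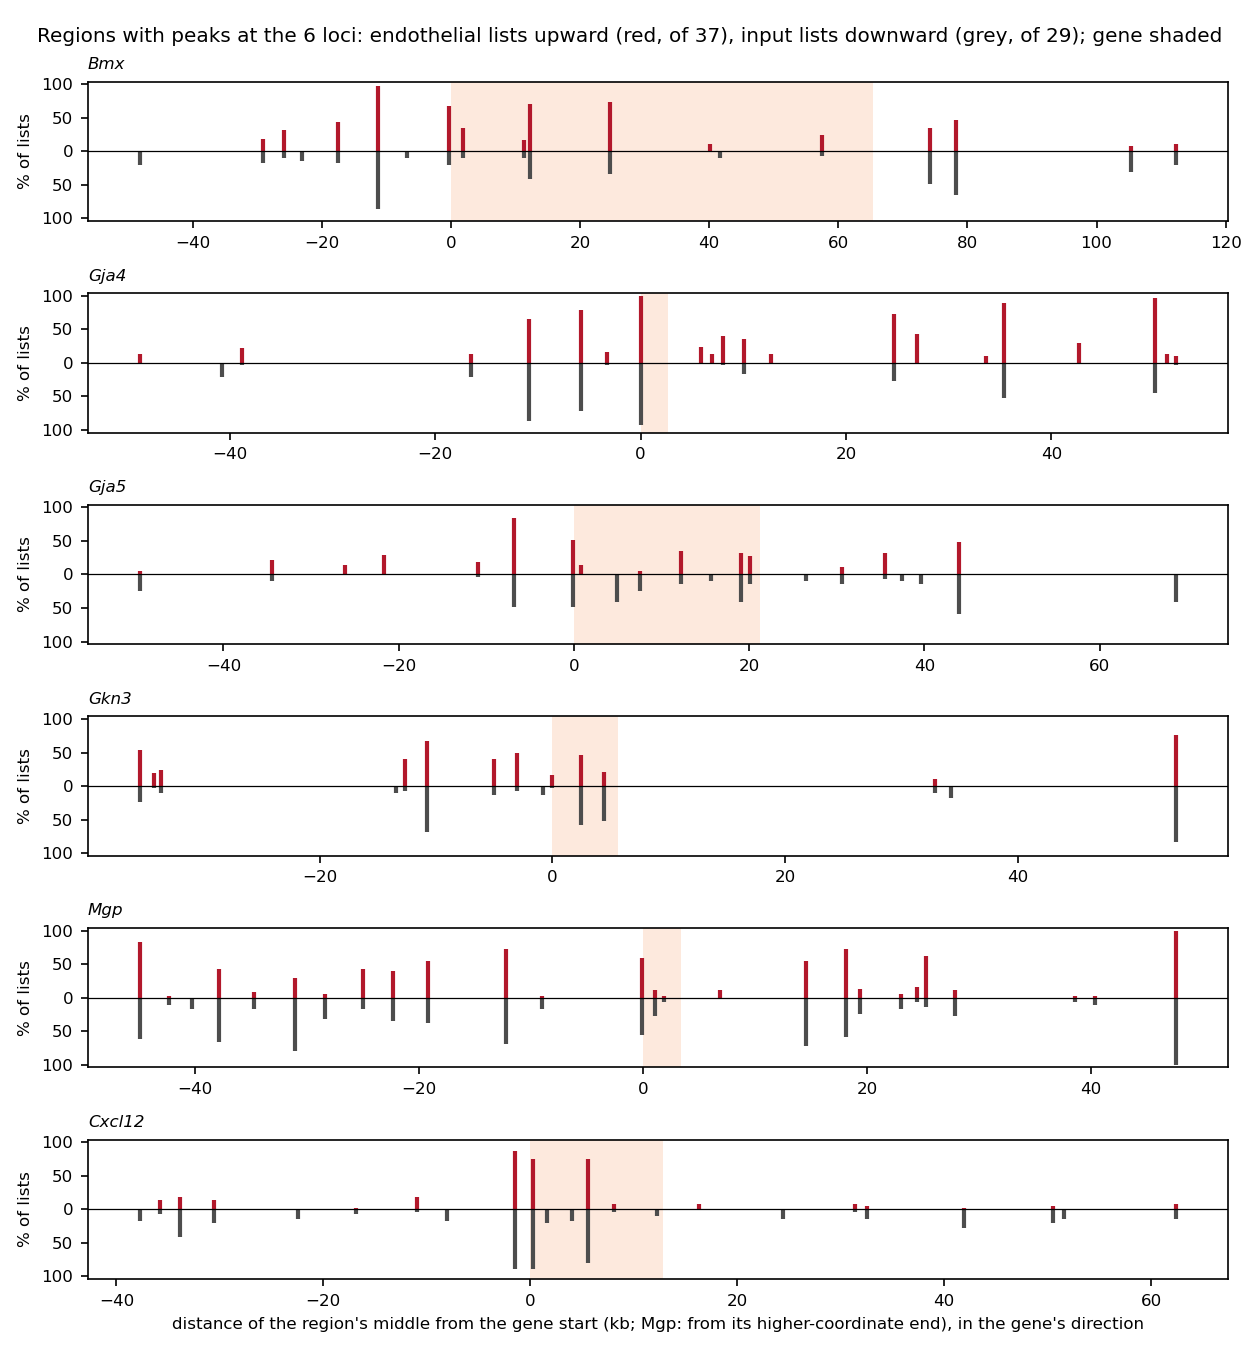
Regions with peaks at the 6 loci, placed by distance from the gene start (kb, in the gene's direction, from the higher-coordinate end for Mgp); bars give the percent of the 37 endothelial lists (red, upward) and of the 29 input lists (grey, downward) with a peak, and shading marks the gene. The Gja4 start has a red bar of 100%, and the longest grey bars of Gja5 without a red one stand 4.89 and 68.7 kb after its start.

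Endothelial and input lists were compared within organs by an exact permutation test, 2-sided, of the difference in the share of lists with a peak, and p-values were adjusted over all regions of the genome tested (Benjamini-Hochberg). At P6, 1 of 92 tested member regions had a peak in more endothelial lists and 2 in more input lists, against 2.84 and 1.36% of all 211826 regions tested. The 18 other arterial loci had 28 and 2 such regions of 427, or 6.56 and 0.468%. In the adult 0 of 43 member regions passed in either direction, as did 0% in each direction of all 91057 regions, with 4 member regions (of 43) and 10.3% of all regions at an unadjusted p under 0.05. At E12, where each organ had 1 input list and the smallest p possible was 0.01, 0 of 84 passed, and 0% in each direction of all 148955 regions, with 8 member regions (of 84) and 12.3% of all regions at an unadjusted p under 0.05.

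The region with more endothelial lists at P6 lay 3.03 kb upstream of Gkn3 (chr6:87391603-87392322). At P6 it had a peak in 3 of 3 brain, 3 of 3 retina and 2 of 2 lung endothelial lists and in none of heart, liver or kidney, and in 1 of 16 input lists, from lung (mean difference in share 0.444, exact permutation adjusted p = 0.0351). At E12 it was listed in 3 of 3 brain and 4 of 4 trunk endothelial lists and in 0 of 4 from heart, and in the adult in 1 of 2 from brain and 2 of 2 from retina. Its endothelial lists thus came from brain, retina, lung and trunk, and those of heart, liver and kidney never held it. The gene start of Gkn3 (chr6:87388807-87389202) showed another pattern, with a peak in 2 of 2 P6 and 3 of 4 E12 heart endothelial lists and in 1 of 2 adult brain ones.

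Both regions with more input lists at P6 lay at Gja5, and each was in 0 of 37 endothelial and 12 of 29 input lists. The one inside the gene, 4.89 kb after its start (chr3:97037116-97037479), had a peak in 0 of 14 P6 endothelial and 8 of 16 P6 input lists, 3 of them brain, 3 lung, 1 heart and 1 retina (difference -0.472, exact permutation adjusted p = 0.0401). The other, 68.7 kb after the start and overlapping the gene model Gm31183 (chr3:97100841-97101387), had one in 0 of 14 and 9 of 16 (difference -0.556, exact permutation adjusted p = 0.0250). Which cells of the tissue gave these peaks was not tested. Leaving out 1 list at a time ended the call of the inner region in 19 of 30 cases, of the outer in 1 and of the Gkn3 region in 17.

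These 3 calls depended on the settings. With the same number of peaks in each list, the 19464 strongest, 4 other member regions of 17 tested passed instead at P6, all with more endothelial lists, against 9.32% of all 46784 regions tested. Of these 2 lay after Gja4 (50.1 and 35.3 kb from its start), 1 at the Gja4 start (14 of 14 against 8 of 16 lists) and 1 before Mgp (12.2 kb). The region 50.1 kb from Gja4 (chr4:127263260-127264606) then had a peak in 11 of 14 endothelial and 3 of 16 input lists (exact permutation adjusted p = 0.00795), and at the deposited threshold in 36 of 37 and 13 of 29. With a −log10 q of at least 5, 3 other member regions of 56 passed, that at 50.1 kb among them, against 5.76% of all regions. No member region passed where a peak had to cover 50% of a region (2.22% of all regions did), where labels were exchanged only among lists of the same read processing (3.37%), or where lists were paired by replicate number, which called 0 of all 184904 regions.

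Between P6 and adult endothelium 2 of 61 tested member regions had a peak in fewer adult lists and 0 in more, against 6.68 and 0.0106% of 122198 regions. The other arterial loci had 19 of 292 lower (6.51%). The start of Gja5 (chr3:97031797-97032717), which holds the promoter printed above, had a peak in 0 of 12 adult, 10 of 14 P6 and 9 of 11 E12 endothelial lists (difference of adult from P6 -0.750, exact permutation adjusted p = 0.0245). With peaks of a −log10 q of at least 5 alone, the difference was -0.222 and the call was lost (exact permutation adjusted p = 0.342). None of the 6 adult organs had it, and at P6 all 6 did in at least 1 list. In input it was listed in 2 of 10 adult and 9 of 16 P6 lists. The second region, 10.8 kb upstream of Gja4 (chr4:127324574-127325176), had a peak in 2 of 12 adult and 12 of 14 P6 lists (difference -0.694, exact permutation adjusted p = 0.0337), and in 25 of 29 input lists. Neither region was called where peaks had to cover 50% of a region, the Gja4 one with an exact permutation adjusted p of 0.0786 and the Gja5 start with too few lists to be tested, while 2.08% of all regions were. With labels exchanged only within the same read processing the Gja5 start was called (exact permutation adjusted p = 0.0471) and the Gja4 region was not (0.0560).

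Adult endothelial lists were shorter than P6 lists, with medians of 36756 and 69068 peaks. With the 19464 strongest peaks of each list 16 member regions could be tested and 0 passed, as did 0 of all regions. Without P6 brain endothelial list 1, 5 of 61 member regions passed, as did 10.0% of all regions, and without adult brain list 1, P6 brain list 2 or 3, adult or P6 kidney list 1 or adult retina list 2, only the Gja5 start did. In the single-cell libraries, which are of brain alone, Gja5 was at 6.45 CPM at P8 and 7.78 in the adult. The ages of the assays differ, and the peak result was not tested against these levels. Between P6 and E12 0 of 78 member regions passed in either direction, as did 0% in each direction of 128967 regions, in a design whose smallest p was 0.00333. At an unadjusted p under 0.05 there were 6 member regions, all with fewer P6 lists, against 6.00% of all regions with fewer P6 lists and 1.24% with more.

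Organs were compared next. An exact permutation test, 1-sided, of whether lists of the same organ were alike called 15 of 61 member regions (24.6%) over adult and P6 endothelial lists, against 32.4% of 122198 regions and 67 of 292 (22.9%) at the other arterial loci. Gja4 had 5 of the called regions, Gkn3 4, and Bmx and Gja5 3 each. Mgp and Cxcl12 had none. With a −log10 q of at least 5, the test called 8 of 38 member regions, 4 of them at Mgp and 1 at Cxcl12, against 30.4% of all 70028 regions tested.

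At Bmx, the gene start (chrX:164257973-164258975) had a peak in all 11 E12 endothelial lists, in all P6 lists of heart, liver, lung and kidney, in 1 of 3 from brain and 0 of 3 from retina. In the adult it had one in both lists of heart and liver and 1 of 2 of lung, and in none of brain, retina and kidney (exact permutation adjusted p of the organ test 0.0234). Input lists held it in 6 of 29, from heart and lung. A region inside the gene, 40.1 kb after the start (chrX:164217956-164218211), showed the reverse, with a peak in 2 of 2 adult and 2 of 3 P6 brain endothelial lists and in no other list of the 66 (exact permutation adjusted p = 0.0343). Its call was lost on leaving out 1 list in 22 of 26 cases, and that of the start in none. The regions in most endothelial lists gave no organ call: 11.3 kb upstream in Pir (36 of 37), and 24.6 and 12.2 kb after the start inside the gene (27 and 26).

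At Gja4, whose start was open in all endothelial lists (chr4:127313565-127314472), the called regions lay after the gene. One 5.84 kb after the start (chr4:127308037-127308362) had a peak in all 4 liver endothelial lists, in both P6 and 3 of 4 E12 heart lists, and in no input list (exact permutation adjusted p = 0.00745). Those 6.91 and 7.99 kb after the start were in all P6 heart and lung lists, the former also in 1 of 2 P6 liver lists and the latter in 1 of 2 adult lung and 10 of 11 E12 lists. The region at 24.7 kb was in all brain and heart lists and in no liver list, and the one at 52.1 kb (chr4:127261777-127262072) in all 4 liver lists and no other endothelial list (exact permutation adjusted p = 0.0230). The widely listed region 35.3 kb after the start was in 33 of 37 endothelial and 15 of 29 input lists, and gave no organ call (exact permutation adjusted p = 0.381).

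At Gja5, the region 6.83 kb upstream (chr3:97025159-97025993) was in 31 of 37 endothelial lists, in all of heart, lung, liver, kidney and trunk, 7 of 8 of brain and 0 of 5 of retina (exact permutation adjusted p = 0.0230). Unlike the gene start, it was in 10 of 12 adult lists. It was in 14 of 29 input lists, none of them brain, retina or liver. The 2 others overlap the gene model 4930573H18Rik. The one 35.5 kb after the start was in all P6 heart and lung endothelial lists and all E12 brain and trunk lists, and the one at 43.9 kb in all 4 lung lists and in none of retina and kidney.

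At Gkn3, the region 3.03 kb upstream also differed between organs (exact permutation adjusted p = 0.00744). The other 3 were led by liver, with a peak in all 4 liver endothelial lists 12.7, 33.7 and 34.2 kb upstream (chr6:87401393-87401887, chr6:87422243-87422932 and chr6:87422975-87423327). The first of these was also in 10 of 11 E12 endothelial lists. The regions in most endothelial lists, 53.6 kb after the start in Antxr1 (28), 10.8 kb upstream (25) and 35.5 kb upstream (20), gave no organ call. Bmp10, Gkn1, Gkn2 and Antxr1 lie in the same window, so a peak near Gkn3 cannot be assigned to it by distance alone.

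Cxcl12 and Mgp had no called region, and the counts of their gene starts by organ are given as a description only. The start of Cxcl12 (chr6:117168012-117169485) was in 28 of 37 endothelial lists, in all 5 of retina and 7 of 8 each of brain and heart, but in 0 of 4 of liver, where 4 of 4 input lists had it. Its organ test gave an adjusted p of 0.0613, and that of the region 1.47 kb upstream, in 32 endothelial lists, 0.0531. A region inside the gene, 5.57 kb after the start, was in 28 endothelial and 23 input lists. The region across the higher-coordinate end of Mgp (chr6:136875537-136876236) was in 22 of 37 endothelial and 16 of 29 input lists, in all 8 of heart, in 5 of 8 of brain (0 of 3 at E12) and in 1 of 4 of liver. The region 47.6 kb from Mgp was in all 66 lists and overlaps Wbp11 and BC049715. Those 12.2 and 44.9 kb upstream of Mgp, the latter in Erp27, were in 27 and 31 endothelial lists.

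**Figure D5:**
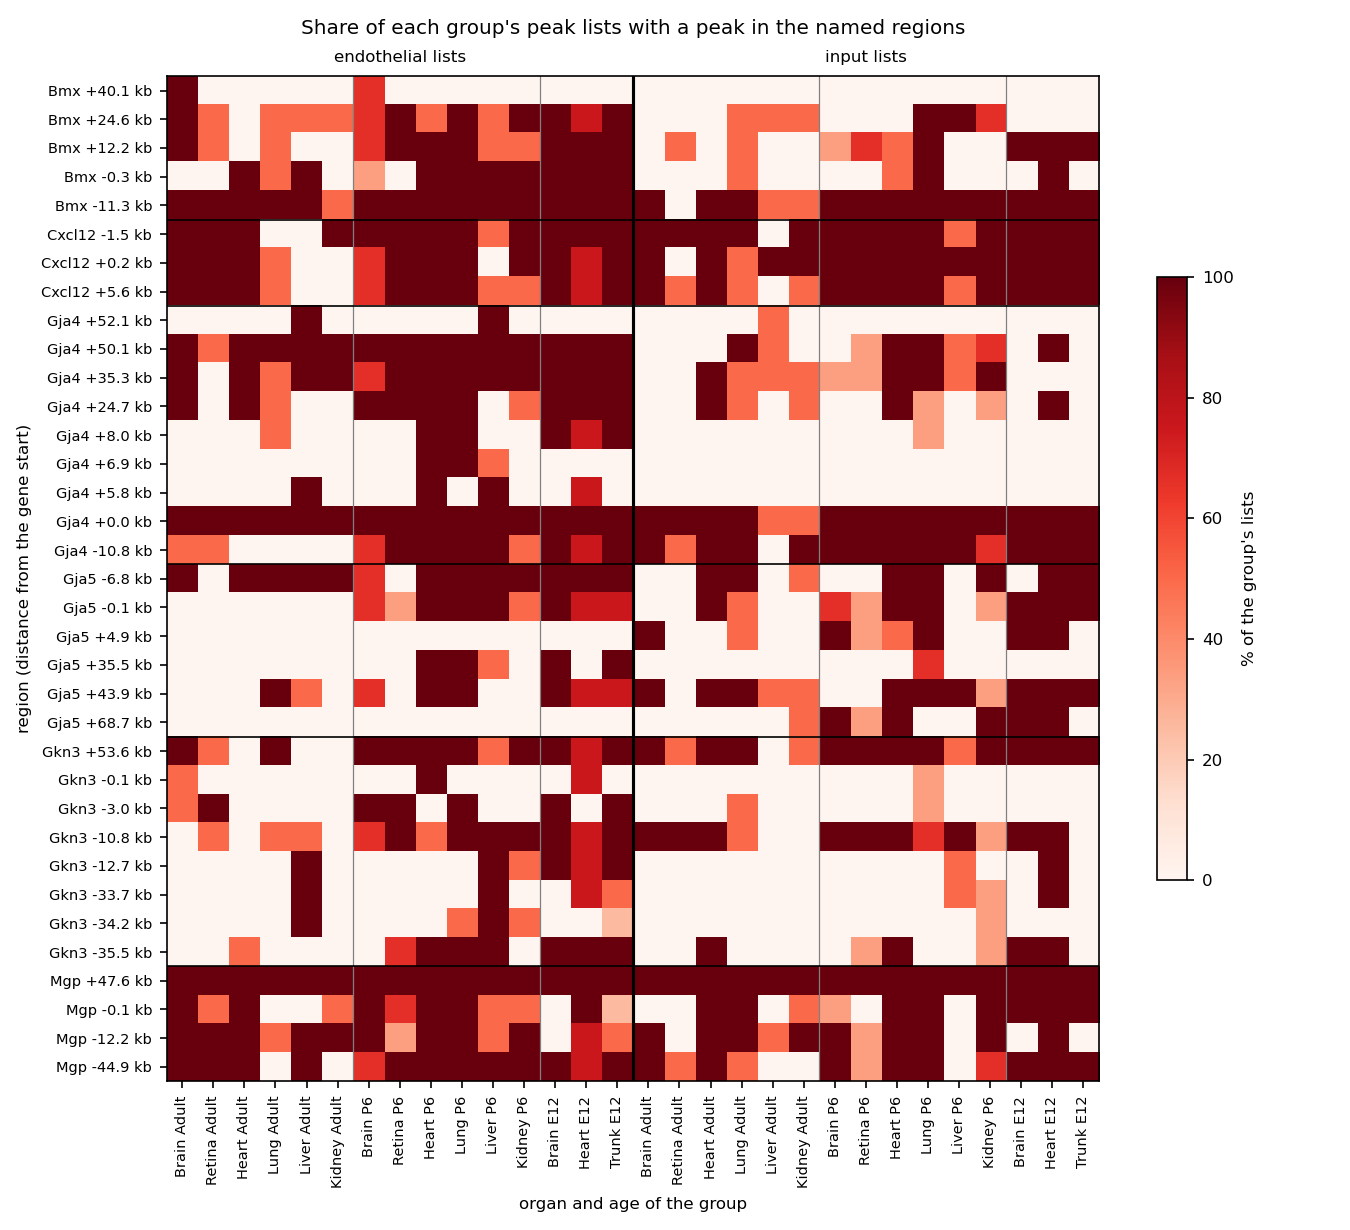
Share of each group's lists with a peak (colour, percent of 1 to 4 lists) in the named regions, labelled by gene and distance from its start, for endothelial groups on the left and input groups on the right. The row of the Gja5 start (-0.1 kb) is empty in all adult endothelial groups and filled at P6 and E12, and the Gkn3 region at -3.0 kb is filled in brain, retina, P6 lung and trunk.

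The calls differed in how far they rested on 1 list. Organ calls of the Bmx start, of the Gja4 regions at 5.84 and 52.1 kb and of the Gkn3 regions at 3.03 and 33.7 kb upstream stayed on leaving out any 1 of the 26 lists, and that of the Gja5 region 6.83 kb upstream was lost in 3 cases. The others were lost in 5 to 24. With a −log10 q of at least 5, however, only the calls of the Bmx start and of the Gja4 region at 5.84 kb remained among all these. Those of the Gja4 region at 52.1 kb (exact permutation adjusted p = 0.106), of the Gkn3 regions at 3.03 and 33.7 kb (both 0.113) and of the Gja5 region (0.0845) were lost. The Gkn3 region at 3.03 kb (0.126) and the Gja5 region (0.0930) also lost their calls where peaks had to cover 50% of a region, a choice under which 18 of 52 member regions and 33.2% of all regions were called. The number of called regions was 8 without P6 heart list 1 or 2, 9 without P6 lung list 1 or 2, and 8, 6 and 6 without P6 retina list 1, 2 and 3. Without these lists 18.8 to 19.4% of all regions were called. The list headers name read files that went through differently named steps, nearly organ by organ, so organ and read processing cannot be told apart in these calls.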

How the data were processed

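Single-cell UMI counts of 5 brain libraries were deposited as sparse tables; per the file headers, those of E9.5, P8 and adult came from Cell Ranger 4.0.0. The E16.5 table has no gene names of its own and was read in the row order of the others (27998 rows; Spearman correlation of gene totals 0.924 to 0.960, against 0.336 to 0.351 when shifted by 1 row). Endothelial barcodes held 23250196 to 80364390 UMIs per library. Doublets were not called; barcodes holding genes of other cell classes were left out in alternatives.

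Peaks were called for each library alone with MACS2 2.1.2 and no control library, with shift -100, extension 200 and q 0.05, per the file headers, which report 10139069 to 59082479 tags per library. Reads were aligned with Bowtie2 to mm10, per the submitters' processing notes. The deposited signal (pileup), fold enrichment and −log10 p and q of a peak were not compared between lists; the deposited −log10 q only ranked or filtered peaks within a list in alternatives. The bulk RNA-seq tables of 54 samples were not used here.

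Regions were stretches covered by peaks of at least 3 lists, with a median width of 409 bp, and were tested where at least 3 of the lists compared held a peak. The statistic was the mean over organs of the difference in the share of lists with a peak, with labels exchanged within organs in full enumeration, 2-sided. The organ test exchanged organ labels among endothelial lists of an age, 1-sided. Both were tested on simulated data, whose lists did not differ in expected length or read processing as the real lists do. Calls needed a Benjamini-Hochberg adjusted p under 0.05 over all regions. Tools were Python 3.11.15, numpy 2.4.6, pandas 2.3.3, scipy 1.17.1 and matplotlib 3.10.9. Gene positions and promoters were those of RefSeq GRCm38.p6, and Mgp was placed by its higher-coordinate end.

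The regions named are the gene starts, all called regions and the 3 in most endothelial lists at each locus, of which 1 is not reported here; the genes named beside a member are the 5 most correlated, among genes in at least 1% of barcodes. The members and lists were chosen with earlier results of these data known. Alternatives covered barcode filters, thinning, equal peak numbers, stricter q (−log10 q of 5), 50% coverage of a region, 500 bp bins, read processing, pairing by number and leaving out each list.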

Additional observations from a re-analysis of the deposited data

Results flagged for a closer look

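E12 heart endothelial list 3 lay far below the other 3 lists of its group. It had a peak in 4 Bmx regions, against 10 to 11 in the others, in 1 Gkn3 region, against 9, and in 31433 of all regions, against 97410 to 110547. It holds 39096 peaks from 10139069 tags. The 16 counts checked in this way came from the E12 heart and trunk endothelial groups, and 3 stood out, all of this list. Counts of the same list depend on each other. The chance rate of about 1 in 20 for a single count therefore does not apply to the 3 together.

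A region was singled out where, in groups with at least 2 lists of each kind, all endothelial and no input lists held it in one organ and age, and all input and no endothelial lists in another. Among the regions reported here, 2 met this, and the difference was not tested. Other regions reported here differed in direction by less than this. The Cxcl12 start was in all endothelial and no input lists of adult retina, and in all input and no endothelial lists of adult kidney and of adult and P6 liver, 4 organ and age groups in all. A region 5.83 kb upstream of Gja4 (chr4:127319667-127320068) was in all endothelial and no input lists of adult liver and in all input and no endothelial lists of adult retina, 2 groups. In adult heart, with 1 input list, that list held it and neither endothelial list did, and in adult kidney 1 of 2 endothelial and no input lists did.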

How the results depend on the processing

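From E12.5 to adult 4 members were at least 2-fold higher in the single-cell libraries under the 8 alternatives, but 1 of these left 0 UMIs of Gkn3 at E12.5 and so no fold for it. With the 19464 strongest peaks of each list, 0 of 16 member regions passed between adult and P6 and 4 of 16 between organs, where 37.8% of all regions did. With a −log10 q of at least 5 these counts were 1 and 8 of 38, against 5.75 and 30.4% of all regions. The 1 was the region 10.8 kb upstream of Gja4, and the call of the Gja5 start was lost; of the organ calls of the report only those of the Bmx start and of the Gja4 region at 5.84 kb remained. Where peaks had to cover 50% of a region, 0 passed at P6 (2.22% of all regions), 0 between adult and P6 (2.08%) and 18 of 52 between organs (33.2%). In 500 bp bins 5 of 182 bins at the member loci passed at P6, 23 of 121 between organs and 3 of 121 between adult and P6, against 16158 of all 425047 bins tested at P6, 27.9% between organs and 5.84% between adult and P6. With labels exchanged only within the same read processing, 0 passed at P6 (3.37% of all regions) and 1 between adult and P6 (1.97%). Lists paired by replicate number gave 0 and 0, with 0 over all regions in both. Same-numbered lists correlated by 0.00200 to 0.183 at P6 and by -0.0897 to 0.0666 between adult and P6. Whether the numbers pair the lists cannot be told from these values, since the presence of a peak also depends on list length. Counts in the adult, at E12 and between P6 and E12 were 0 in each alternative that gave a value.

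Leaving out 1 list gave 0 to 4 member regions at P6 (1.80 to 4.11% of all regions), 1 to 5 between adult and P6 (4.01 to 10.0%), 6 to 17 between organs (18.8 to 35.1%), and 0 to 0 in the other comparisons. At P6 the count was 0 without kidney endothelial list 1 and 1 without any of brain endothelial lists 1, 2 and 3, brain input lists 1, 2 and 3, lung endothelial lists 1 and 2, lung input list 3 and retina endothelial lists 1, 2 and 3. Organ calls have no direction. In the other comparisons no called region changed direction, but those at Gja5 could not. No endothelial list, or no adult endothelial list, held a peak there. The cause of these changes was not tested. Depth and list length limit what a missing peak can show, and 1 library for each age limits the single-cell levels to description.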
